A study of Mus musculus with 6 samples.

Results

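Conventional dendritic cells type 2 (cDC2s) of the mouse kidney were chosen by their UMIs of a few genes in single-cell libraries, first of all 4 genes: Cd209a and Mgl2, which encode C-type lectins, Flt3, which encodes the receptor that maintains dendritic cells (DCs), and Zbtb46, which encodes a transcription factor of conventional DCs. A cell belonged to the cDC2 pool if its barcode had at least 500 unique molecular identifiers (UMIs), 250 or more genes, and no more than 50% of UMIs from mitochondrial genes, with at least 2 of the 4 genes detected. It also had at least 3 UMIs of H2-Aa, an MHC class II gene, fewer than 10 UMIs of C1qa, C1qb, and C1qc together, and none of Xcr1 and Clec9a (conventional DCs type 1, cDC1s), Cd3e (T cells), or Cd79a (B cells). The rule found 167 members among the 49797 barcodes that passed the limits on quality (0.335%) and among 60181 barcodes in all.

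The study compared kidneys that were rejected with kidneys that were accepted after transplantation across a full MHC mismatch, by 10x single-cell RNA sequencing of 6 kidneys with 1 library each. Rejecting kidneys (n = 2) were BALB/c (I-Ad) kidneys of mice aged 6 to 7 weeks that were placed into male B6 (I-Ab) recipients whose own kidneys were both removed, and they were retrieved on day 15 without further treatment. Tolerized kidneys (n = 2) came from the same kind of transplant and the same day, but the recipients had also been infused with BALB/c splenocytes treated with ethylenecarbodiimide (ECDI) 7 days before and 1 day after surgery. Naive kidneys (n = 2) came from untransplanted B6 males aged 10 to 12 weeks. Their counts listed 28692 genes, against 31053 genes in the grafts. Strain, age, surgery, and processing therefore differed from the grafts at once and cannot be told apart. The study describes 2 experiments and marks them by color in a supplementary figure of cell numbers per kidney. The labels do not say which kidney belonged to which, so that experiment was not entered in a fit. The p values measure only the spread between these samples. The labels do not separate donor from recipient cells either. Among all kept barcodes, Xist had at most 7 UMIs in any kidney, against 1173 to 5334 UMIs of Ddx3y, so that the sex of the cells did not separate them.

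Conventional DCs arise from bone marrow precursors under the growth factor Flt3 ligand and carry antigen to T cells. In the cDC2 branch, which depends on the transcription factor Irf4, antigen is presented mainly on MHC class II to CD4 T cells, whereas cDC1s specialize in showing engulfed antigen to CD8 T cells. On activation, DCs gain costimulatory molecules such as CD80 and CD86 and the chemokine receptor Ccr7, which guides them through lymph to the draining lymph node. In a kidney graft, both donor DCs and recipient DCs that enter the organ can prime T cells against donor antigen.

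The pool had 6 and 4 members in naive kidneys, 42 and 53 members in rejecting kidneys, and 41 and 21 members in tolerized kidneys. All members together gave 24770 and 19870 UMIs in naive, 349969 and 450698 UMIs in rejecting, and 465005 and 269658 UMIs in tolerized kidneys. The median member had 3669 and 3603, 7894.5 and 7840, and 10369 and 12498 UMIs, respectively. Tolerized libraries held the most UMIs, with 96803926 and 94316013 UMIs in all against 56837038 and 48111410 in the rejecting and 41562534 and 34874702 in the naive kidneys. The part of this depth in the differences below was not tested, except where values are given after thinning to equal depth. No barcode was shared between members of different kidneys, and 1 member of the first rejecting kidney had a barcode that was also kept in the first tolerized kidney.

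The genes of the rule are given as a description only. Cd209a was detected in all members of both naive kidneys, in 71.4% and 71.7% of those of the rejecting kidneys, and in 75.6% and 61.9% of those of the tolerized kidneys. Zbtb46 was detected in no naive member, in 45.2% and 43.4% of rejecting members, and in 41.5% and 52.4% of tolerized members. Most members stood at the edge of the rule, since 138 had exactly 2 of the 4 genes, 29 had 3, and none had all 4. The most frequent pairs were Cd209a with Flt3 (44 members), Cd209a with Mgl2 (33 members), Flt3 with Zbtb46 (26 members), and Cd209a with Zbtb46 (21 members). Just outside the rule, 479 barcodes had 1 of the 4 genes and otherwise qualified, 64 were left out only for Xcr1 or Clec9a, 10 had 10 or more C1q UMIs, and 6 had fewer than 3 H2-Aa UMIs. Just inside it, 9 members had 3 to 9 C1q UMIs and 4 had 3 to 5 H2-Aa UMIs.

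The label was checked with cDC2 markers that the rule did not use, against 3 other pools of the same 4 grafts. Over all 6 kidneys, these pools held 355 cDC1 barcodes (an Xcr1 or Clec9a UMI, at least 3 H2-Aa UMIs, and fewer than 10 C1q UMIs), 4574 C1q-high macrophage barcodes (at least 10 C1q UMIs), and 923 Ly6c2 monocyte barcodes (at least 3 UMIs each of Ly6c2 and Lyz2, fewer than 10 C1q UMIs, and in neither DC pool). All 3 were without Cd3e and Cd79a UMIs. Levels are CPM, the UMIs of a gene per 1000000 UMIs summed over the members of a kidney, averaged over the 4 grafts. Clec10a, a lectin of cDC2s, had 294 CPM in the cDC2 pool against 103 in cDC1s, 86.4 in C1q-high macrophages, and 39.2 in Ly6c2 monocytes. Kmo, an enzyme of tryptophan breakdown, had 98.5 CPM against 58.0, 3.78, and 9.96. Irf4, the transcription factor of the cDC2 branch, had 34.0 CPM against 10.9, 1.97, and 3.45. Cd7 and Ltb had 116 and 168 CPM, against 41.8 and 80.8 in cDC1s. These markers therefore pointed the same way as the rule, whereas others did not. Sirpa, a surface receptor by which cDC2s are usually sorted, had 110 CPM in the cDC2 pool, 104 in cDC1s, 358 in C1q-high macrophages, and 223 in Ly6c2 monocytes. Itgam, which encodes CD11b, had 48.4 CPM, against 29.1 in cDC1s, 71.2 in C1q-high macrophages, and 114 in Ly6c2 monocytes. Itgax, which encodes CD11c, had 90.8 CPM, against 125, 96.0, and 15.7 in the same order. Esam had 11 UMIs in the first rejecting kidney and none in the other 5 kidneys, and Clec4a4 had 1 UMI in all, so that these markers of cDC2s in the spleen were at or near 0.

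Beside the markers, the genes that set the pool most apart from both C1q-high macrophages and Ly6c2 monocytes were sought among all genes with at least 50 CPM in each graft. Outside the rule, these were led by Ffar2, a receptor for short-chain fatty acids, with 74.3 and 124 CPM in the rejecting and 138 and 134 CPM in the tolerized kidneys. The next were H2-Oa, which modulates peptide loading on class II, Kmo, and Klrd1, a lectin-like receptor better known from natural killer cells. Klrd1 had 157 and 346 CPM in rejecting and 133 and 356 CPM in tolerized kidneys, and in each of the 4 grafts it was at least 6.23-fold above the highest macrophage and monocyte value. Against cDC1s the same genes stood less apart, since the lowest value in the pool was 1.73 times the highest cDC1 value for Ffar2, 1.42 times for Klrd1, 1.37 times for Kmo, and 0.891 times for H2-Oa. Lsp1, an actin-binding protein of leukocytes, was nearly even at 1300 and 1285, and 1312 and 1239 CPM.

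**Figure D1:**
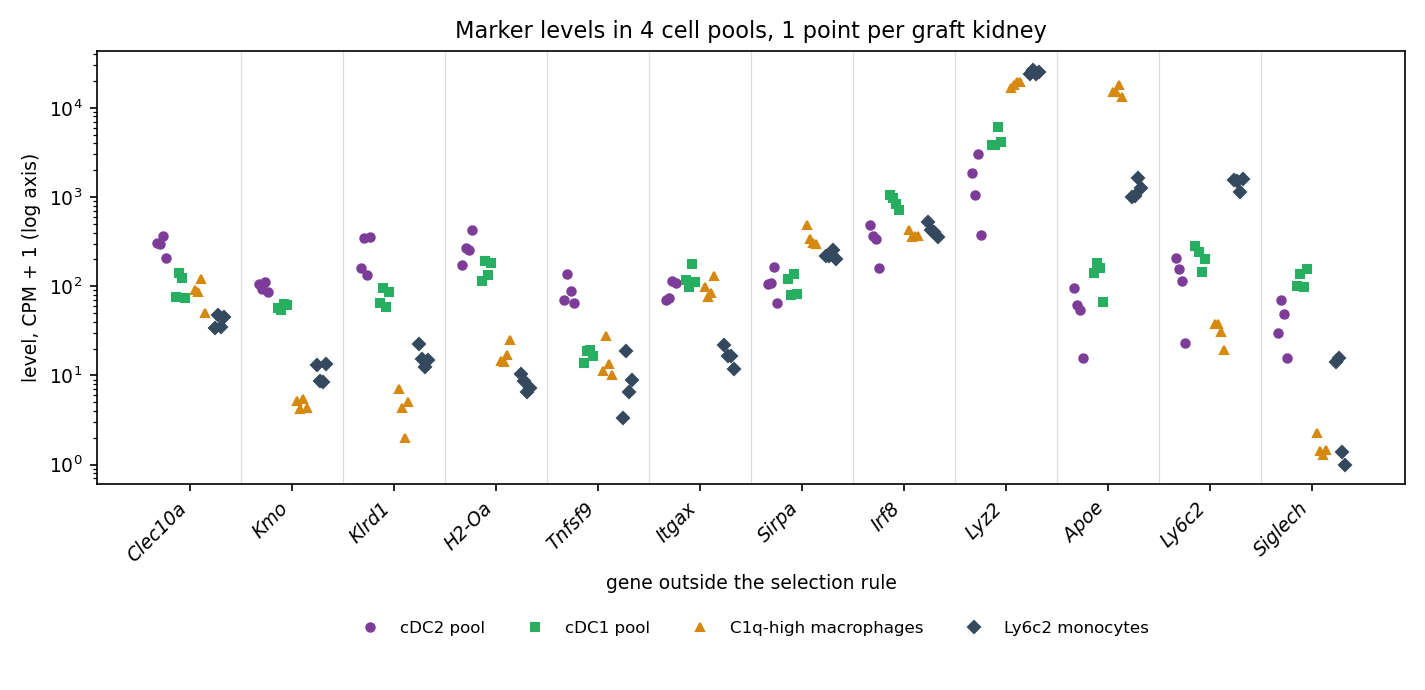
Levels of 12 genes outside the rule in the cDC2, cDC1, C1q-high, and Ly6c2 pools of the 4 grafts (log axis, CPM + 1), with each point 1 kidney. Clec10a, Kmo, Klrd1, H2-Oa, and Tnfsf9 were highest in the cDC2 pool on average, and Irf8, Itgax, and Siglech in the cDC1 pool. Apoe and Sirpa were highest in the C1q-high pool. Lyz2 and Ly6c2 were highest in the Ly6c2 pool, which was chosen by UMIs of these genes, so that this is no result.

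Markers of other cell types were measured in the same sums. Macrophage genes outside the rule summed to 471 and 300 CPM in the rejecting and 391 and 271 CPM in the tolerized kidneys (12 genes, Cd63 the most abundant), and Mertk and C5ar1 had no UMI in any graft. Apoe had 55.7 CPM on average in the pool against 15276 in C1q-high macrophages. Monocyte markers summed to 4603 and 4089, and 5056 and 2043 CPM (12 genes), with Lyz2 the most abundant, and Vcan had no UMI. Lyz2 had a mean of 1585 CPM, against 18490 CPM in C1q-high macrophages. Ly6c2 monocytes had 24750 CPM, but they were chosen by Lyz2 UMIs. T cell markers summed to 149 and 115 CPM in rejecting and 108 and 33.4 CPM in tolerized kidneys (12 genes, Cd8b1 the most abundant on average). In the first tolerized kidney, all 45 Cd8b1 UMIs (96.8 CPM) lay in 1 member. Cd8b1 had 11.4 and 15.5 CPM in the rejecting kidneys and no UMI in the second tolerized kidney. NK cell markers summed to 203 and 377, and 135 and 378 CPM, of which Klrd1 was most. B cell markers summed to 266 and 433, and 144 and 234 CPM, with Ighm the most abundant and Pax5 without a UMI. Neutrophil markers summed to at most 8.88 CPM and stromal markers to at most 7.42 CPM in any graft. Mast cell and basophil markers summed to 57.1 and 86.5, and 49.5 and 81.6 CPM, nearly all of it Kit, with Cpa3 without a UMI, and non-classical monocyte markers to 274 and 209, and 256 and 286 CPM. Endothelial markers summed to 274 and 48.8, and 53.8 and 29.7 CPM, and distal tubule and collecting duct markers to 51.4 and 164, and 55.9 and 256 CPM. cDC1 markers outside the rule summed to 989 and 854, and 1032 and 567 CPM, led by Irf8.

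Proximal tubule markers gave the largest sum of those from cells outside the immune system. This sum was 17198 and 8405 CPM in the naive, 2909 and 391 CPM for the rejecting, and 2430 and 3679 CPM in the tolerized kidneys (12 genes), and 13 of the 167 members had at least 10 UMIs of Kap, the androgen-regulated protein of proximal tubules. These members numbered 2 and 3 in the naive, 1 and 0 in the rejecting, and 3 and 4 in the tolerized kidneys. Scrublet scores called 26 of the 167 members doublets, 2 and 3, 7 and 3, and 10 and 1 in the same order. With the called doublets removed, the pool held 4 and 1, 35 and 50, and 31 and 20 members.

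Members differed among themselves by known states of DCs. At least 2 of 5 genes of mature, migratory DCs (Ccr7, Fscn1, Ccl22, Cacnb3, and Nudt17) were detected in 20 members, 4 and 7 in the rejecting and 7 and 2 in the tolerized kidneys. At least 2 of 6 genes of dividing cells (Mki67, Top2a, Cdk1, Birc5, Ube2c, and Cenpf) were detected in 16 members, of which 8 came from the second rejecting kidney, where Mki67 had 275 CPM against 11.4 in the first and 118 and 55.6 in the tolerized kidneys. Plasmacytoid DCs also use Flt3, and at least 2 of 4 of their genes (Siglech, Ccr9, Cox6a2, and Ly6d) were found in 10 members, 2 and 6 in the rejecting, 1 and 0 in the tolerized, and 0 and 1 in the naive kidneys. At least 3 UMIs of Ly6c2, the monocyte antigen, were found in 21 members, 7 and 8 in the rejecting, 5 and 0 in the tolerized, and 0 and 1 in the naive kidneys. The counts of members with plasmacytoid DC genes and with Ly6c2 were thus higher in both rejecting kidneys, whereas those of the mature and dividing states overlapped. Such counts depend on depth, because a deeper cell shows more genes.

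The first comparison asked how many cDC2s each kidney held. Grafts held more members than naive kidneys, at 47.5 ± 7.78 in rejecting and 31 ± 14.1 in tolerized against 5 ± 1.41 in naive kidneys (SD, n = 2). The rejecting and tolerized counts also did not overlap, with tolerized kidneys 16.5 members lower, a difference of -26.5 without the first and -6.5 without the second tolerized kidney. Each of these comparisons gave p = 0.333 in a 2-sided exact permutation test, the smallest p that 2 kidneys against 2 allow. Without the members that carried plasmacytoid DC genes, however, the counts met at 40 and 47 in rejecting against 40 and 21 in tolerized kidneys (exact p = 0.667). The counts also overlapped with a limit of 3 C1q UMIs, at 36 and 52 against 39 and 21, and where 3 of the 4 genes were required, at 5 and 10 against 8 and 4 (exact p = 0.667 for each). As a share of kept barcodes, the pool was 0.0831% and 0.0660% in naive, 0.358% and 0.656% for rejecting, and 0.418% and 0.305% for tolerized kidneys. The grafts thus stayed above the naive kidneys, but rejecting and tolerized kidneys overlapped (difference -0.146 percentage points, exact p = 0.667). They did not overlap among barcodes with at least 1000 UMIs (-0.203 percentage points) or at most 20% mitochondrial UMIs (-0.143 percentage points), each with exact p = 0.333. After thinning to 1000 UMIs the shares did not overlap either (-0.00985 percentage points, exact p = 0.333), but the counts of members did. These were 6 of 9024 and 6 of 7504 barcodes in rejecting against 6 of 9400 and 4 of 6358 in tolerized kidneys. The shares thus stood apart only by the number of barcodes, and no order can be read from them. With called doublets removed the shares overlapped (-0.170 percentage points, exact p = 0.667).

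Among barcodes with a UMI of Ptprc, which encodes the leukocyte antigen CD45, the order of the groups turned. Members made up 1.64% and 1.46% in naive kidneys, with exact (Clopper-Pearson) 95% intervals of 0.339% to 4.72% and 0.303% to 4.22%, because only 183 and 205 barcodes had a Ptprc UMI and 3 members did in each kidney. In rejecting kidneys they made up 0.5996% and 0.869%, and in tolerized kidneys 0.887% and 0.889%, with intervals that all overlapped. Naive kidneys were highest and tolerized kidneys just above rejecting kidneys, by 0.154 percentage points (exact p = 0.333). This last difference was 0.0193 without the first and 0.288 without the second rejecting kidney, and the groups overlapped among barcodes with at least 1000 UMIs and with a limit of 3 C1q UMIs (exact p = 0.667 for each). With called doublets removed, the naive shares were 1.25% and 0.578%, and without members of 10 or more Kap UMIs they were 1.09% and 0.488%, and in both cases all 3 groups overlapped. Intervals cover counting error only. When every barcode with at least 1000 UMIs was thinned to 1000 UMIs, the rule found 1 and 1 members in naive, 6 and 6 for rejecting, and 6 and 4 for tolerized kidneys, and none of these had a Ptprc UMI in the naive kidneys (0 of 70 and 0 of 75 Ptprc barcodes, exact upper limits of 5.13% and 4.80%), so that the order by Ptprc could not be told at equal depth.

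**Figure D2:**
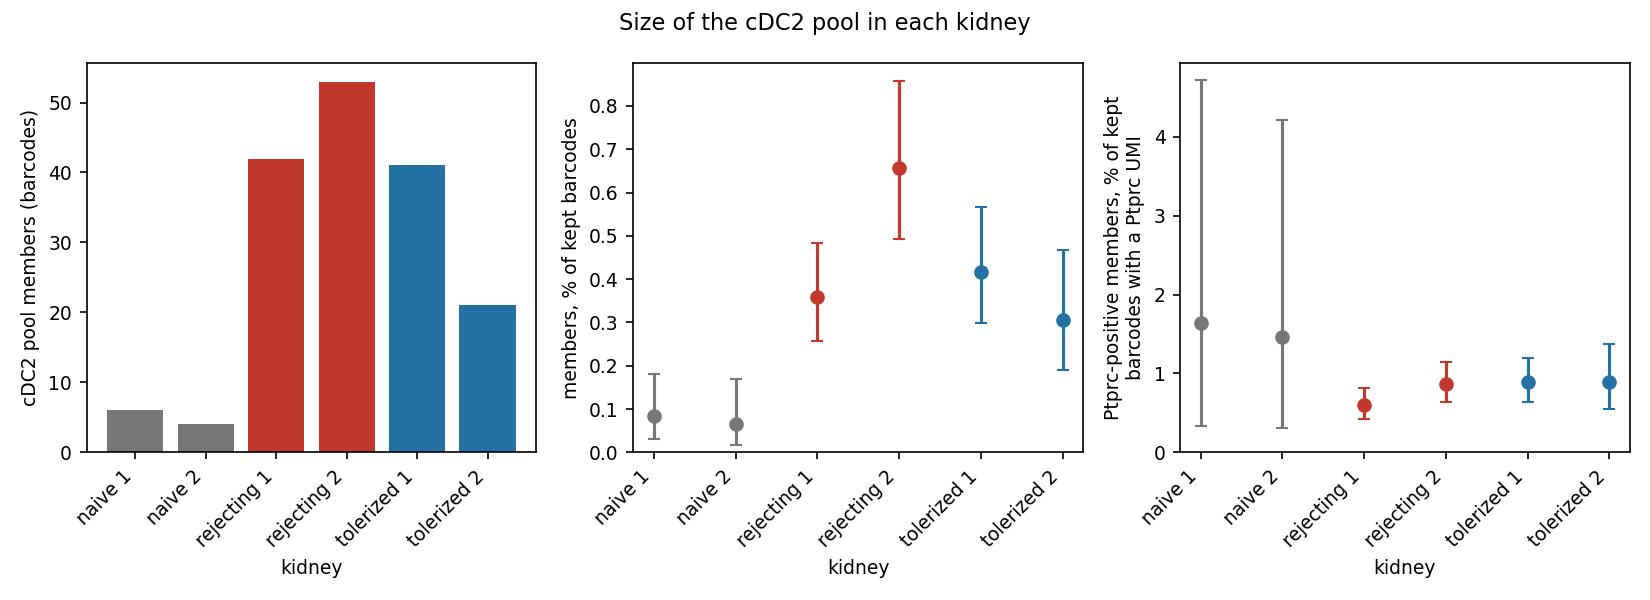
Size of the cDC2 pool in each of the 6 kidneys as the number of members, the percent of kept barcodes, and the percent of barcodes with a Ptprc UMI. Bars are kidneys and error lines exact 95% binomial intervals, and the 4 grafts (21 to 53 members) stood above the naive kidneys (6 and 4) in number and in the share of kept barcodes but not in the share of Ptprc barcodes.

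The second comparison asked which genes differed between the cDC2s of tolerized and rejecting kidneys. UMIs were summed over the members of a kidney, which made kidneys the replicates, and levels from here on are CPM after TMM normalization unless named raw. Of 4665 genes tested with edgeR's quasi-likelihood test, none passed a false discovery rate (FDR) of 0.05 (0%), and 229 had an unadjusted p under 0.05 (4.91%), 136 of them higher (2.92%) and 93 lower (1.99%) in tolerized kidneys. The values of the groups did not overlap for 1632 genes (35% of those tested), 791 higher (17%) and 841 lower (18%) in tolerized kidneys. DESeq2 called 3 genes, with Ifitm1 lower and Rpl41 and Rps28 higher in tolerized kidneys.

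Ifitm1 was nearest to the threshold. It encodes an interferon-induced transmembrane protein that restricts virus entry (ENSMUSG00000025491, chromosome 7, 140967221 to 140969825, plus strand of GRCm38). It had 382 and 626 CPM in the rejecting kidneys and 43.1 and 38.8 CPM in the tolerized kidneys. Both rejecting kidneys were far above both tolerized kidneys. The log2 fold change, tolerized over rejecting, stood at -3.60 (standard error 0.362) with an FDR of 0.0707 from edgeR's quasi-likelihood test. Over the alternatives, the FDR of edgeR or DESeq2 ran from 2.51e-22, without the first rejecting kidney, to 0.458, with the replicate number as a block, and the direction was the same in all. In the naive kidneys, Ifitm1 had 0 and 1 UMI.

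Ifitm1-positive members were more frequent in rejecting kidneys. Ifitm1 was detected in 18 of 42 and 31 of 53 rejecting members, in 4 of 41 and 5 of 21 tolerized members, and in none of 6 and 1 of 4 naive members. The member with the most Ifitm1 held 40 of 127 and 60 of 285 UMIs in the rejecting kidneys. Thinned to 3000 UMIs per cell, 35% and 46% of rejecting members and 9.76% and 9.52% of tolerized members had an Ifitm1 UMI, so that the shares stayed apart at equal depth. In C1q-high macrophages of the same kidneys, with medians of 8873 and 8750, and 15182.5 and 13004 UMIs, the thinned shares were 1.52% and 1.94%, and 1.75% and 0.669%. The members in all 4 grafts were therefore above the share seen in macrophages. Of its neighbors in the same gene cluster, Ifitm2 had 933 and 1151 CPM in rejecting and 880 and 810 CPM in tolerized kidneys, and Ifitm3 had 3569 and 2479, and 2451 and 2150 CPM. Neither passed (log2 fold changes of -0.30 and -0.39, FDR of 0.959 and 0.946 from edgeR), although their groups did not overlap.

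Bst2 encodes tetherin, which holds budding viruses on the cell surface and is induced by interferon (ENSMUSG00000046718, chromosome 8, 71534255 to 71537456, minus strand). It had 635 and 654 CPM in rejecting and 261 and 241 CPM in tolerized kidneys, and both groups were even. The log2 fold change was -1.36 (standard error 0.238) and did not pass (FDR 0.551 from edgeR). Bst2 is also abundant in plasmacytoid DCs, and without the 10 members that carried plasmacytoid DC genes the change was -1.19. The raw level in naive kidneys was 80.7 and 554 CPM, with 10 of the 11 UMIs of the second kidney in 1 member.

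The sequence before the start of these 2 genes, the leading genes lower in tolerized kidneys, is shown because both belong to interferon-induced families. The 250 bases upstream of the RefSeq start are given for GRCm38.p6, and for Ifitm1 this start lies inside the gene span of GENCODE printed above, whose start is further upstream. They are written 5′ to 3′ on the strand of the gene, and capitals mark GAAA, any 2 bases, and GAAA again, the core of the element bound by interferon-activated factors, searched on both strands.
Ifitm1, chr7:140967826-140968075, plus strand: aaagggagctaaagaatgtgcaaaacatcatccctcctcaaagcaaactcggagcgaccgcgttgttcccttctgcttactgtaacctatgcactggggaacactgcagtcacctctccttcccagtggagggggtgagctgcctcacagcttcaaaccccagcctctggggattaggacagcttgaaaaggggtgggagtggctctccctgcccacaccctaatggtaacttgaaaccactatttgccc
Bst2, chr8:71537473-71537722, minus strand: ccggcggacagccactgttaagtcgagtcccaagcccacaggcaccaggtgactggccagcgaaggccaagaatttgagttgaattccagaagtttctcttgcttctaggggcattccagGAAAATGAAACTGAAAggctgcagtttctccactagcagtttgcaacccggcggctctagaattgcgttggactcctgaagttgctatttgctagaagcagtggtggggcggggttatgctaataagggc
Bst2 held 2 overlapping matches, the first starting 130 bases before the start, and Ifitm1 held none in this window. Of 32851 promoters of this length, 978 held the letters (2.98%). A match is a description of the sequence and says nothing about binding in these cells.

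Other genes with small p values were lower in tolerized kidneys without passing. Cd209d, a lectin of the same family as Cd209a, had 138 and 163 CPM in rejecting and 22.7 and 0 CPM in tolerized kidneys. Gstp1, a glutathione transferase, had 105 and 70.3, and 18.1 and 12.9 CPM. Fyn, a Src family kinase, had 153 and 211, and 79.4 and 51.7 CPM. For each of the 3, every rejecting kidney was above every tolerized kidney, and the log2 fold changes were -3.39, -2.40, and -1.43 (FDR of 0.551, 0.551, and 0.789 from edgeR).

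On the other side, Rpl41, which encodes the smallest protein of the large ribosomal subunit, had 1691 and 1770 CPM in rejecting and 4775 and 4753 CPM in tolerized kidneys. The values of each group were nearly equal, and on the log2 scale they differed by 1.46 (standard error 0.222, FDR 0.551 from edgeR, 0.00801 from DESeq2; over the alternatives the direction was the same). Raw levels were 4602 and 6190 CPM in the naive kidneys, 1606 and 1788 CPM in the rejecting kidneys, and 4529 and 4090 CPM in the tolerized kidneys. The same contrast was 1.25 in C1q-high macrophages and 1.39 in cDC1s, so that it was of like size in 3 pools of the same kidneys. Rps28, another ribosomal protein gene, had 277 and 707, and 2054 and 1715 CPM (log2 fold change 1.93). Of 81 ribosomal protein genes tested, a list chosen after values had been seen, 10 had an unadjusted p under 0.05 and all 10 were higher in tolerized kidneys (2.92% of all genes tested), with a median log2 fold change of 0.19 against -0.003 for all genes tested.

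Maf, which encodes a transcription factor of macrophages and regulatory myeloid cells (chromosome 8, 115682942 to 115707794, minus strand), had 12.0 and 2.20 CPM in rejecting and 70.3 and 99.1 CPM in tolerized kidneys (log2 fold change 3.62, standard error 0.613, FDR 0.551 from edgeR). The groups did not overlap, but the counts were small. Maf was found in 3 of 42 and 1 of 53 rejecting members and in 12 of 41 and 2 of 21 tolerized members, and in the second tolerized kidney 1 member held 22 of its 23 UMIs. Spp2, Folr1, and Cyp2d26 had small p values as well and were higher in tolerized kidneys. Folr1, the folate receptor of tubules, had 9.03 and 0, and 61.2 and 116 CPM, and 24 of its 27 UMIs in the second tolerized kidney lay in 1 member. Spp2 had 6.02 and 0, and 81.6 and 353 CPM, with 72 of 82 UMIs of that kidney in 1 member. Cyp2d26 had no UMI in either rejecting kidney (a count of 0 leaves room up to 8.57 and 6.66 raw CPM), against 36.3 and 30.2 CPM in tolerized kidneys. They moved with proximal tubule markers, of which 5 of 8 tested had an unadjusted p under 0.05, all higher in tolerized kidneys (2.92% of all genes tested), with a median log2 fold change of 1.90. Gpx3 had 286 and 35.1, and 893 and 2060 CPM, whereas Kap overlapped at 2004 and 70.3, and 587 and 633 CPM, and 1 member of the first rejecting kidney held 599 of its 666 UMIs. Without the members of 10 or more Kap UMIs, 5 of 6 tubule markers tested were still higher at an unadjusted p under 0.05. The part of tubular RNA in the other differences was not tested.

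**Figure D3:**
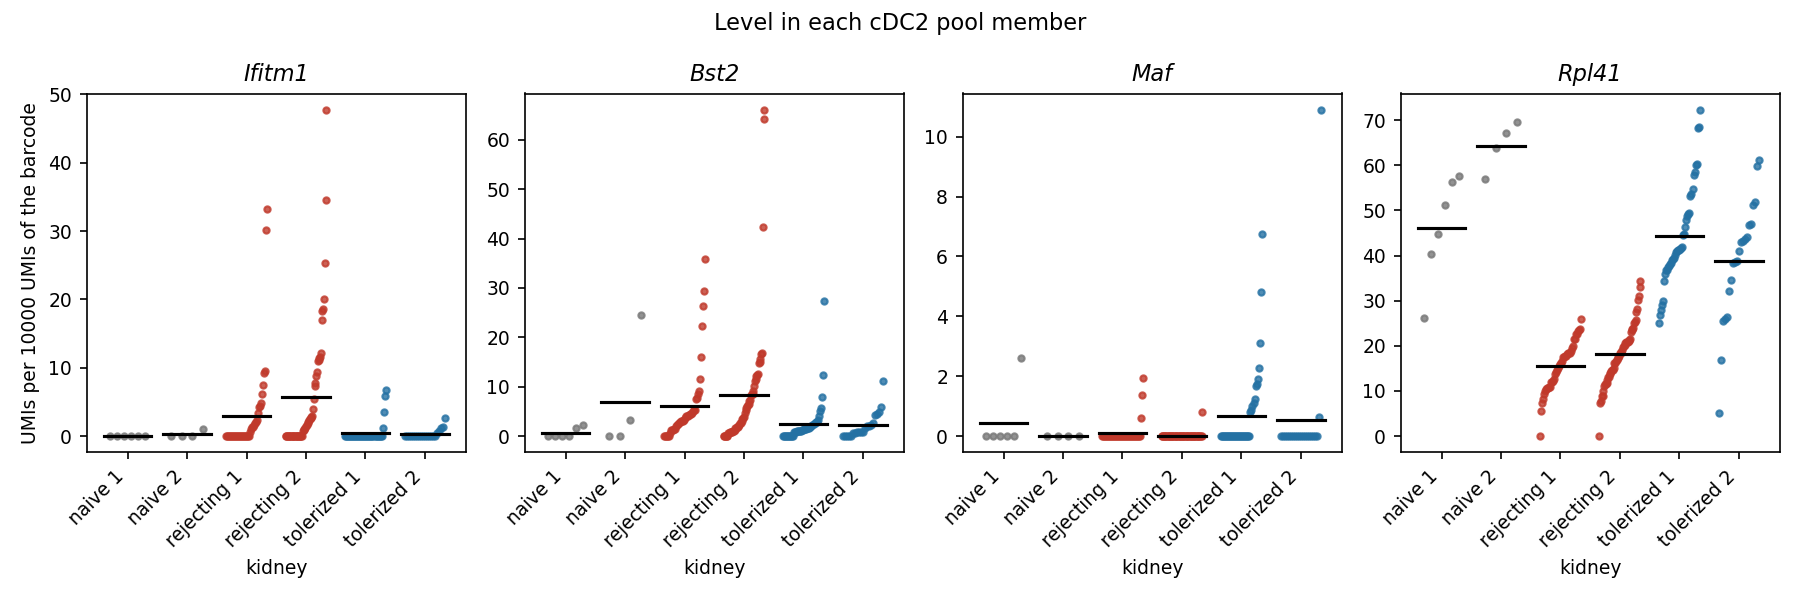
UMIs per 10000 of Ifitm1, Bst2, Maf, and Rpl41 in each member of the 6 kidneys, with each point 1 cell and the line the mean over members. Ifitm1-positive members were frequent in the rejecting kidneys (18 of 42 and 31 of 53) and few in the tolerized kidneys (4 of 41 and 5 of 21), and Maf in the second tolerized kidney came mostly from 1 member.

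Gene groups were described by lists, none of which had a gene past the FDR. Counts at an unadjusted p under 0.05 are to be read against the 4.91% of all genes tested (2.92% higher and 1.99% lower in tolerized kidneys). Genes of the selection rule were left out of every list. MHC class II genes load and present peptide to CD4 T cells. Of 16 tested, 7 had groups that did not overlap and all 7 were higher in tolerized kidneys, against 17% of all genes in that direction, while none had an unadjusted p under 0.05. The median log2 fold change was 0.32. H2-Eb1 had 5546 and 6392 CPM in rejecting and 7024 and 10528 CPM in tolerized kidneys, and H2-Ab1 had 6476 and 8096, and 8233 and 10704 CPM. The invariant chain Cd74 had 16489 and 17961, and 19571 and 23477 CPM, and the class II transactivator Ciita had 292 and 292, and 360.5 and 366 CPM. Each of these was higher in both tolerized kidneys than in both rejecting kidneys, and none passed the test. H2-DMa, which exchanges the peptide, overlapped at 1113 and 885, and 893 and 1142 CPM. H2-Aa, which the rule used, had 5345 and 6698, and 7167 and 10377 CPM.

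MHC class I genes had a median of -0.13 over 20 genes, of which 6 were lower and 1 higher in tolerized kidneys without overlap, against 18% and 17% of all genes. An unadjusted p under 0.05 was found for 1 of them, the nonclassical H2-Q4, at 138 and 158 CPM in rejecting and 77.1 and 81.9 CPM in tolerized kidneys. H2-K1 overlapped at 2630 and 1965, and 2054 and 2525 CPM, and so did B2m, the light chain, at 1571 and 2091, and 1653 and 2607 CPM.

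Costimulatory and coinhibitory genes had a median of 0.30 over 16 tested, with 1 higher and 1 lower at an unadjusted p under 0.05. Pvr, a ligand of T cell and NK cell receptors, had 15.05 and 24.2 CPM in rejecting and 59.0 and 51.7 CPM in tolerized kidneys, and Cd200r1, an inhibitory receptor of myeloid cells, had 57.2 and 46.1, and 22.7 and 4.31 CPM. The main ligands of CD28 did not separate the groups. Cd86 had 126 and 261, and 252 and 159 CPM (log2 fold change 0.09), and Cd80 had 24.1 and 43.9, and 38.5 and 60.3 CPM (0.44). Cd83, a marker of mature DCs, had 319 and 424, and 435 and 461 CPM, and Cd274, the ligand of PD-1, had 30.1 and 72.5, and 38.5 and 51.7 CPM.

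Among cytokines, Il1b was abundant in every graft, at 1255 and 1847 CPM in rejecting and 1501 and 1732 CPM in tolerized kidneys, and the groups overlapped (log2 fold change 0.06, standard error 0.269). Ebi3, a subunit of interleukin-27 and interleukin-35, was the cytokine gene with an unadjusted p under 0.05 of 6 tested, at 24.1 and 30.7, and 70.3 and 68.9 CPM (log2 fold change 1.32, FDR 0.882 from edgeR). Il12b, a subunit of interleukin-12, had 23 UMIs in the second rejecting kidney, 7 in the first tolerized kidney, and none in the other 4 kidneys, too few to enter the test.

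Of 10 chemokines tested, 3 had an unadjusted p under 0.05, with 2 higher and 1 lower in tolerized kidneys (2.92% and 1.99% of all genes tested). Cxcl9, which is induced by interferon-gamma and draws Cxcr3-positive T cells, had 1117 and 933 CPM in rejecting and 1546 and 1534 CPM in tolerized kidneys (log2 fold change 0.59, FDR 0.941 from edgeR), and 1 member held 183 of the 356 UMIs of the second tolerized kidney. Where 3 of the 4 genes of the rule were required, the direction turned (-2.27). Cxcl16 had 169 and 171, and 258 and 250 CPM, and Ccl4, a chemokine that draws T cells and myeloid cells, had 536 and 512, and 340 and 99.1 CPM. In all 3, both kidneys of a group lay on the same side. Cxcl10 overlapped at 834 and 512, and 753 and 547 CPM, and so did Ccl5 at 1171 and 303, and 757 and 539 CPM.

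Ccr7, the lymph node homing receptor, separated the groups with uneven numbers. It had 172 and 165 CPM in rejecting and 2.27 and 68.9 CPM in tolerized kidneys (log2 fold change -2.53, standard error 0.852, unadjusted p = 0.0194 and FDR 0.908 from edgeR). These were 57 and 75 UMIs in 6 and 12 rejecting members and 1 and 16 UMIs in 1 and 6 tolerized members. Without the second tolerized kidney, Ccr7 was the only gene called (log2 fold change -6.03, FDR 0.0433 from edgeR; over the alternatives the FDR ran from 3.53e-06, without the first rejecting kidney, to 1). The other genes of migratory DCs did not share one order. Nudt17 was lower in both tolerized kidneys, at 30.1 and 28.5, and 20.4 and 8.62 CPM, and Cacnb3 higher, at 33.1 and 26.4, and 43.08 and 43.09 CPM. Fscn1, which bundles actin in dendrites, had 99.3 and 200, and 143 and 47.4 CPM, Ccl22 had 18.1 and 163, and 186 and 4.31 CPM, and both overlapped. Ccl17 was higher in both tolerized kidneys, at 39.1 and 70.3, and 77.1 and 177 CPM (log2 fold change 1.13, FDR 0.946 from edgeR). Of 17 mature DC markers tested, Ccr7 was the one with an unadjusted p under 0.05.

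**Figure D4:**
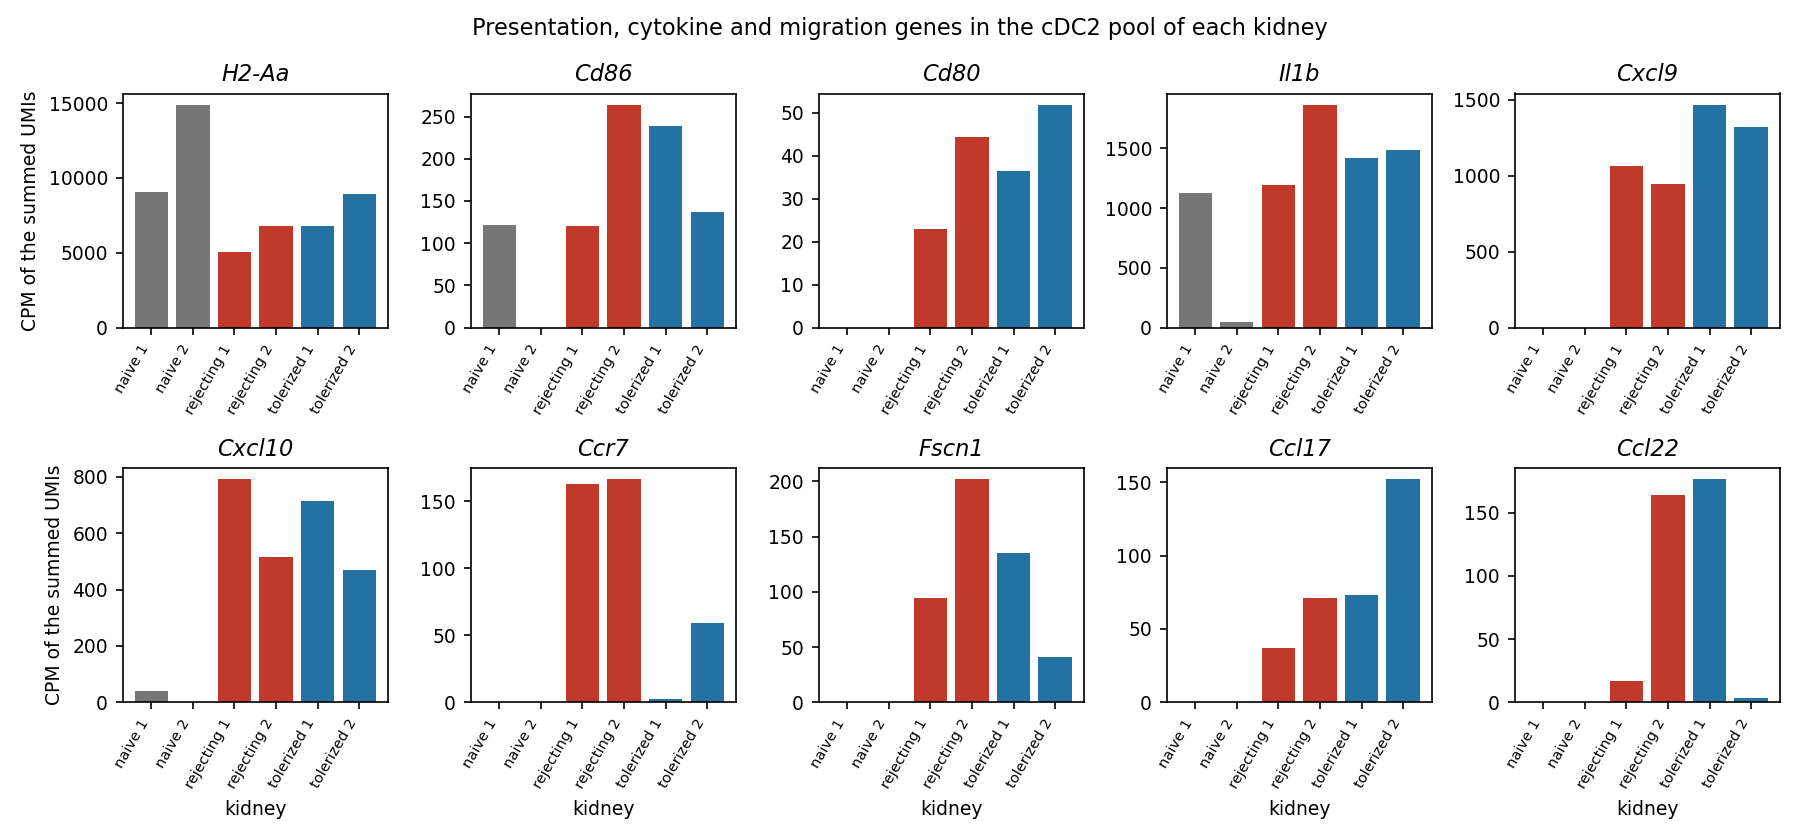
Raw CPM of 10 genes of presentation, costimulation, cytokines, and migration in the cDC2 pool of each of the 6 kidneys (bars, 1 kidney each, all axes from 0). Cxcl9 stood at 1060 and 943 CPM in rejecting, 1467 and 1320 CPM in tolerized, and 0 CPM in naive kidneys, and Ccl22 differed more within each graft group than between the groups.

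Interferon-induced genes had few members with small p values, near the 4.91% of all genes tested. Of 24 genes induced by interferon-gamma, 2 had an unadjusted p under 0.05, Cxcl9 and Aif1, both higher in tolerized kidneys, and the median was 0.07. Gbp2, a GTPase of cell defense, had 400 and 422, and 381 and 496 CPM, with overlapping groups. Of 22 type I interferon-stimulated genes, only Bst2 had an unadjusted p under 0.05, and the median was 0.10. Ifitm1, described above, was not in either list. Isg15 had 244 and 266, and 277 and 185 CPM, and Irf7, which drives the interferon response of plasmacytoid DCs, had 135 and 101.01, and 63.5 and 164 CPM.

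Transcription factors of DCs had 2 higher and 3 lower of 22 at an unadjusted p under 0.05 (2.92% and 1.99% of all genes tested), with a median of -0.0054. Bcl6, a repressor that acts in DC development, had 15.05 and 21.96, and 40.8 and 60.3 CPM (log2 fold change 1.35). Tcf4, the factor of plasmacytoid DCs, had 211 and 185, and 122 and 47.4 CPM (-1.13), and Cebpb, a factor of monocytes, had 151 and 156, and 86.2 and 90.5 CPM (-0.80). None passed the FDR (0.908, 0.935, and 0.908 from edgeR). Irf4 overlapped at 36.1 and 41.7, and 58.9 and 4.31 CPM, Irf8, the factor of cDC1s and plasmacytoid DCs, had 512 and 362, and 358 and 185 CPM, and Klf4 overlapped at 154 and 178, and 324 and 142 CPM.

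Marker lists of other immune cells had medians on both sides of 0. Of 7 plasmacytoid DC markers tested, 2 had an unadjusted p under 0.05 (Bst2 and Tcf4), both lower in tolerized kidneys, with a median of -0.46. Of 8 monocyte markers, 2 did so, among them Plac8 (median -0.43). Plac8 had 1658 and 1779 CPM in rejecting and 1004 and 1082 CPM in tolerized kidneys, and Ly6c2 had 220 and 154, and 120 and 25.9 CPM. The members with plasmacytoid DC or Ly6c2 signal counted above were also more numerous in both rejecting kidneys. Without those that carried plasmacytoid DC genes, 3 plasmacytoid DC markers were still tested, with a median of -0.83, and the 8 monocyte markers had a median of -0.36. The medians of -0.83 over 3 genes and -0.46 over 7 are of different genes and cannot be compared. The part of the Ly6c2 members was not tested. Of 10 cDC2 markers tested, Itgax was higher, at 72.2 and 72.5, and 120 and 125 CPM, and Cd209d lower at an unadjusted p under 0.05, with a median of 0.062. Of 5 macrophage, 5 cDC1, and 3 non-classical monocyte markers tested, none did so (medians of -0.86, 0.33, and 0.12). Sirpa overlapped at 111 and 108, and 170 and 73.3 CPM, and so did Clec10a at 322 and 296, and 385 and 237 CPM.

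Among lectins and uptake receptors, 3 were higher and 1 lower of 17 at an unadjusted p under 0.05 (2.92% and 1.99% of all genes tested). Clec4a1 had 21.1 and 30.7 CPM in rejecting and 95.2 and 56.0 CPM in tolerized kidneys, and Clec4n, which encodes Dectin-2, had 33.1 and 81.3, and 22.7 and 8.62 CPM. Growth factor receptors had none of 9 with an unadjusted p under 0.05, and Crlf2, the receptor of thymic stromal lymphopoietin, had 214 and 191, and 132 and 159 CPM. Innate sensors had none of 8 and cell cycle genes none of 15. Of 7 chemokine receptors and migration genes, Ccr7 was the one, and Ccr2 overlapped at 391 and 220, and 426 and 207 CPM. Of 6 S100 genes, S100a4 had 876 and 1309, and 2415 and 2525 CPM (log2 fold change 1.18, FDR 0.716 from edgeR). Of 23 immediate early and stress genes, Egr1 was higher in tolerized kidneys and Hspa8, Hsp90aa1, and Fos were lower, each with an unadjusted p under 0.05, and Hspa8, a heat shock protein, had 4791 and 3213, and 2260 and 2271 CPM.

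**Figure D5:**
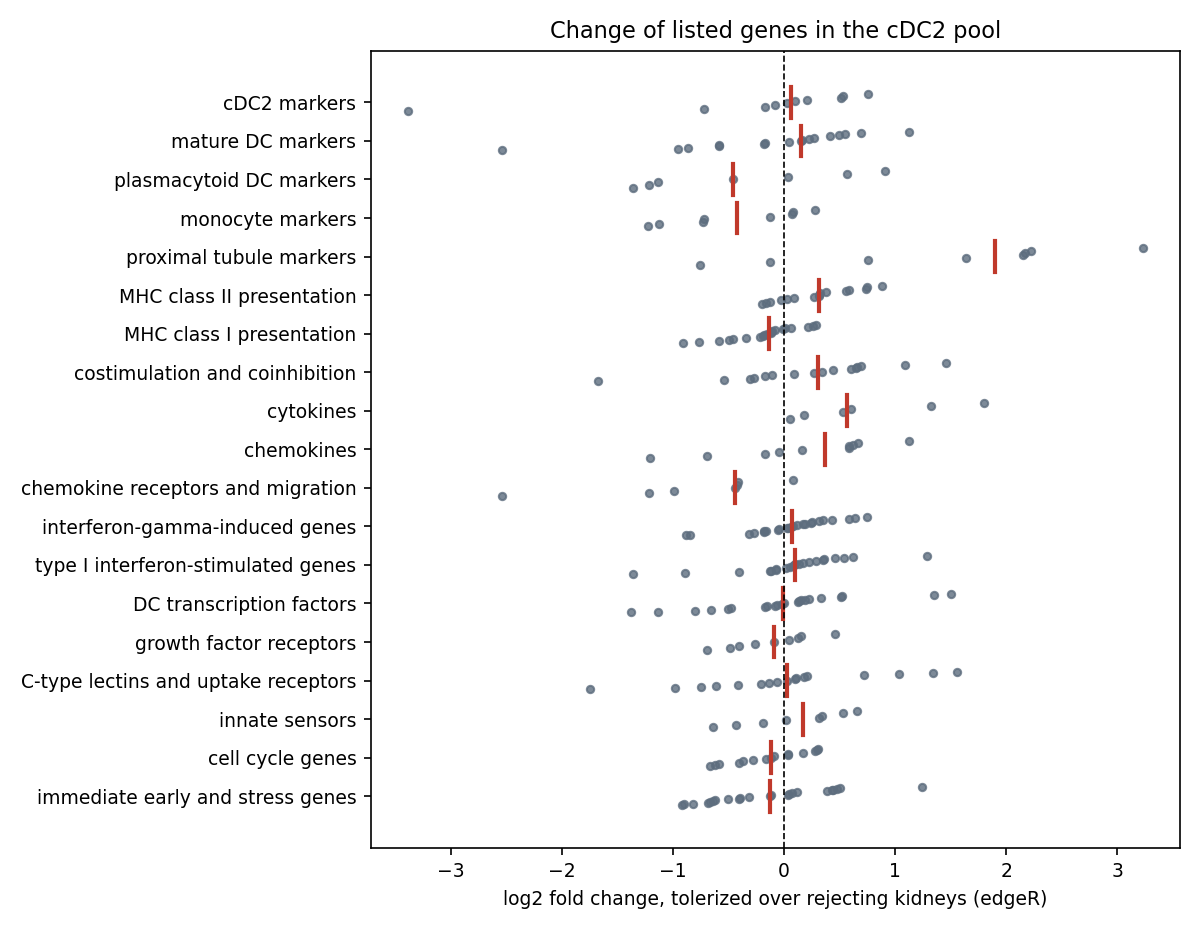
Log2 fold change of tolerized over rejecting kidneys in the cDC2 pool for the tested genes of 19 lists, with each point 1 gene, the red line the median of the list, and the dashed line the median of all 4665 genes. MHC class II presentation had a median of 0.32, the plasmacytoid DC and monocyte markers -0.46 and -0.43, and the proximal tubule markers 1.90.

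Naive kidneys held 6 and 4 members, below the minimum of 10 set for a fit. No test of gene levels against them was run, and their levels are given as values. Interferon-gamma-induced genes summed to 565 and 755 raw CPM in naive kidneys, against 5112 and 5050 raw CPM for rejecting and 5357 and 5381 raw CPM for tolerized kidneys, so that every graft was far above both naive kidneys. Cxcl9 was without a UMI in both, for which a count of 0 leaves room up to 121 and 151 raw CPM. Gbp2 had 1 and 0 UMI there. Genes of mature DCs summed to 484 and 151 raw CPM in naive kidneys, against 3129 and 3268, and 3090 and 2585 CPM. MHC class II genes went the other way, at 49697 and 58530 raw CPM in naive, 30960 and 37362 for rejecting, and 36942 and 42865 for tolerized kidneys. Axl, a receptor for dying cells that the study examined in macrophages, had 1 UMI in each naive kidney, 1 and 5 for rejecting, and 6 and 1 for tolerized kidneys, and its mean of 7.64 raw CPM in the grafts compared with 217 in C1q-high macrophages. In C1q-high macrophages, interferon-gamma-induced genes were also lower in naive kidneys. They summed to 1839 and 1796 raw CPM there, against 11541.5 and 10504 for rejecting and 7843 and 8571 for tolerized kidneys. Naive members of the cDC2 pool had 17198 and 8405 raw CPM of proximal tubule markers, and 2 and 3 of them were called doublets. The part of tubular RNA and doublets in these values was not tested. The strain, age, surgery, and processing of naive kidneys cannot be told apart from the group.

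The last comparison asked whether genes differed between tolerized and rejecting kidneys to another extent in cDC2s than in other myeloid cells of the same kidneys. The difference of the log2 fold changes was tested with the kidney as a block. Against C1q-high macrophages, 3 of 10395 genes passed (0.0289%). Ifitm1 had 351 and 584 CPM in rejecting and 39.9 and 34.7 CPM in tolerized cDC2s, against 5.03 and 10.3, and 12.3 and 3.40 CPM in macrophages. The log2 fold changes differed by -3.83 (standard error 0.395, FDR 9.36e-06 from edgeR; up to 0.189 over the alternatives, where it lost the call without the first tolerized kidney at -2.63). Maf had 189 and 209, and 276 and 215 CPM in macrophages, where it is abundant, and differed by 3.34 (FDR 0.0215, and 0.876 with called doublets removed). Spp1, or osteopontin, had 36.0 and 67.6, and 124 and 316 CPM in cDC2s and 83.0 and 215, and 110 and 296 CPM in macrophages, and differed by 1.64 (FDR 0.0402). In the second tolerized kidney, 1 member held 68 of 82 Spp1 UMIs, and with called doublets removed the difference was -0.68. Bst2 and Rpl41 did not pass, at -0.86 and 0.17 (FDR of 0.437 and 1).

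Against the cDC1 pool, 18 of 6367 genes passed (0.283%), 4 higher and 14 lower, and 2 of them, Cd209a and Mgl2, were genes of the rule. Ifitm1 was not among them (-1.83, FDR 0.18 from edgeR), and in cDC1s alone its log2 fold change was -1.98 (FDR 0.851 from edgeR). The cDC1 pool also carried markers of other cells. Its monocyte markers summed to 5795 and 6676 raw CPM in rejecting and 8037 and 6252.5 in tolerized kidneys. Its proximal tubule markers summed to 5878 and 2451, and 9903 and 12932 raw CPM. The part of such signal in the differences was not tested. Ccl6 and Ccl9, chemokines of myeloid cells, had a larger gap between tolerized and rejecting kidneys in the cDC1 pool than in the cDC2 pool. Ccl6 had 102 and 153, and 849 and 575 CPM in cDC1s and 126 and 100, and 208 and 140 CPM in cDC2s, a difference of -1.87 (FDR 0.0139 from edgeR; 0.132 from DESeq2). Ccl9 had 55.4 and 69.9, and 472 and 224 CPM in cDC1s and 102 and 107, and 183 and 132 CPM in cDC2s, a difference of -1.86 (FDR 0.0181; 0.674 from DESeq2). Cfp, or properdin of the alternative complement pathway, had 204 and 359, and 118 and 102 CPM in cDC2s and 78.7 and 128, and 157 and 119 CPM in cDC1s, a difference of -1.76 (FDR 0.0156; 0.749 from DESeq2). These 3 genes and Capg and Nat8f1 lie outside the rule for naming genes and were chosen after their values were seen. With called doublets removed, 1 gene was called, Plet1, whose UMIs in the second tolerized kidney lay almost all in 1 member (40 of 41). Vessel genes among the 18 included Emcn and Fabp4. All 26 Emcn UMIs of the cDC2 pool lay in 1 member of the first rejecting kidney. All 96 Fabp4 UMIs of that kidney also lay in 1 member.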

How the data were processed

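The kidneys had been perfused and dissociated, and the cells loaded on a 10x chip. The authors deposited unnormalized UMI counts per gene and barcode, made with Cell Ranger on mm10, and the totals per kidney given above set the precision. Coordinates follow GENCODE on GRCm38, and promoters RefSeq on GRCm38.p6. Members, gene lists, and comparisons were chosen with earlier results of these data known. Per-sample columns left out numbered 0.

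Member UMIs were summed per kidney and tested with edgeR 4.0.16 (filterByExpr, TMM, quasi-likelihood test, and Benjamini-Hochberg adjustment over all genes tested, FDR threshold 0.05), with DESeq2 1.42.0 as an alternative, in R 4.3.3 with limma 3.58.1. Interaction fits had the kidney as a block. Pool sizes were compared by exact permutation tests and intervals were exact binomial, with Python 3.11.15 and scipy 1.17.1. Doublets were scored with Scrublet in scanpy 1.11.5 at an assumed rate of 0.8% per 1000 barcodes and stayed in the pool unless stated. Thinning used seed 11. The scripts were tested on simulated data. In simulated counts for tolerized against rejecting cDC2s, the fit called 2.5% of 200 genes changed 2-fold, 74.5% of those changed 4-fold, and 91% of those changed 8-fold. False calls numbered 0, 2, and 21. The absence of calls therefore does not show that genes with smaller changes were equal. The rule for named genes took the genes of the rule, in each direction the 5 genes with the smallest p between tolerized and rejecting kidneys where none passed, the 5 largest changes in each interaction, the up to 4 most abundant genes of each list, Axl, and 11 genes of DC activation and identity. Genes named for a small unadjusted p within a list, and other genes outside this rule, were chosen after their values were seen. Alternatives changed the test, scaling, filter, block, doublets, limits on members, and kidneys. Some genes are not reported here.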

Additional observations from a re-analysis of the deposited data

Results flagged for a closer look

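The genes below had a change between tolerized and rejecting kidneys that differed between the cDC2 pool and another pool of the same kidneys, by the test of the difference itself (edgeR's quasi-likelihood interaction test, FDR under 0.05). Both comparisons use the same cDC2 libraries. Against C1q-high macrophages, the log2 fold changes differed by -3.83 for Ifitm1, 3.34 for Maf, and 1.64 for Spp1. With called doublets removed, Maf did not pass and the difference of Spp1 changed sign. Ifitm1 had UMIs in many members, whereas 22 of 23 Maf UMIs and 68 of 82 Spp1 UMIs of the second tolerized kidney lay in 1 member each.

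Against the cDC1 pool, the differences of immune genes were -1.87 for Ccl6, -1.86 for Ccl9, -1.76 for Cfp, -2.23 for Capg, -4.56 for Cd209d, -2.65 for Fscn1, 3.03 for Dnase1l3, and 8.02 for Plet1. In this comparison, DESeq2 called 4 genes, and edgeR called 1 gene, Plet1, with called doublets removed. Capg had 105 and 84.9 CPM in rejecting and 91.6 and 12.7 CPM in tolerized cDC2s, against 109 and 125, and 386 and 230 CPM in cDC1s. Cd209d had 138 and 161, and 22.3 and 0 CPM in cDC2s, against 17.5 and 8.32, and 25.0 and 39.3 CPM in cDC1s. Fscn1 had 98.8 and 198, and 141 and 46.7 CPM in cDC2s, against 29.1 and 11.6, and 159 and 29.9 CPM in cDC1s. Dnase1l3, a nuclease of DCs, had 26.9 and 4.35, and 46.9 and 115 CPM in cDC2s, against 355 and 125, and 151 and 139 CPM in cDC1s.

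Genes of tubule and vessel cells made up the rest. The differences were 5.32 for Spp2, 1.90 for Gpx3, and -3.02 for Nat8f1, and -6.53 for Fabp4, -9.60 for Sparc, -10.35 for Emcn, -10.42 for Gpihbp1, and -14.56 for Cldn5. Emcn, Gpihbp1, and Cldn5 had no UMI in 3 of the 4 grafts of the cDC2 pool, so that their fitted values depend on the prior count and bound nothing. Fabp4 had 287 and 2.18 CPM in rejecting and 6.70 and 0 CPM in tolerized cDC2s. The part of single cells and of RNA from other cell types in these differences was not tested.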

How the results depend on the processing

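With 2 kidneys a group and 4 to 53 members a kidney, counting error and single cells limit every value. Pool sizes were compared with naive kidneys, but the comparisons of gene levels in cDC2s with naive kidneys and their alternatives were not run. The naive kidneys held 6 and 4 members against a minimum of 10. Between tolerized and rejecting kidneys, 3 genes were called by DESeq2, 85 without a filter on low counts, 2 with doublets removed, and 1 each with at most 20% mitochondrial UMIs, with members of 10 or more Kap UMIs removed (chosen after seeing the data), and with all 6 kidneys in 1 fit, against 0 otherwise. Leaving out 1 kidney gave 0 to 97 calls (97 without the first and 75 without the second rejecting kidney), with the lone kidney assumed to vary like the other group. With the replicate number as a block, 0 genes were called, and the deviations of same-numbered kidneys had r = -0.007 over 2699 genes, and the labels do not tie a number to an experiment. Against C1q-high macrophages (3 calls), there were 1 by DESeq2, 5 with DESeq2 size factors, 41 unfiltered, 23 with doublets removed, and 3 to 47 without 1 kidney. Against cDC1s (18 calls), there were 4, 19, 66, 1, and 31 to 76. Thinned to 1000 UMIs, the share of Ptprc barcodes was 0.0739 and 0.0838 percentage points above naive in rejecting and tolerized kidneys, but the naive counts were 0, so that no order can be read. The tolerized minus rejecting share of kept barcodes ran from -0.295 to 0.00361 without 1 kidney, and the latter was without the second rejecting kidney. Log2 values that changed sign were Spp1 at -0.68 and Cd86 at -0.091 with doublets removed, Irf4 at 0.073 and Il1b at -0.18 without Kap-rich members, Il1b at -0.020 without plasmacytoid-marker members, and Sirpa at -0.26 and Cxcl9 at -2.27 with 3 marker genes. Without 1 kidney, Fscn1 ran from -1.66 to 0.040, Ccl22 from -4.32 to 2.54, Irf4 from -3.07 to 0.59, Sirpa from -0.57 to 0.63, Cd86 from -0.32 to 0.74, Il1b from -0.19 to 0.37, and the Rpl41 difference against cDC1s from -0.022 to 0.12. The causes were not tested. Of the alternatives for single genes, 378 kept direction and side of the threshold, 43 gained a call, and 47 lost one.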
